A study of Homo sapiens with 4 samples.

Results

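Transcripts of 10 genes of the Wnt and beta-catenin pathway were examined for N6-methyladenosine (m6A), the most common internal mark of messenger RNA. The genes were the receptors FZD6 and FZD7, the co-receptors LRP5 and LRP6, the ubiquitin ligases RNF43 and ZNRF3, the scaffolds APC and AXIN1, beta-catenin itself (CTNNB1) and its DNA-binding partner TCF7L2. A peak was assigned to a gene when its summit lay inside the gene's span on the human genome build hg19. By this rule 55 of the 52188 peaks listed for cells treated with chenodeoxycholic acid (CDCA) and 58 of the 63093 peaks listed for untreated cells belonged to the 10 genes.

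The cells were GES-1, which the labels give as a gastric epithelial line, and CDCA is a primary bile acid. One population had received CDCA at 100 µM for 48 h, and the other was labelled Control and is called untreated here. No vehicle was named in the labels. RNA was pulled down with an m6A antibody and sequenced, and the series set out to compare the m6A sites of both populations. Each condition had 1 immunoprecipitation library, which allows no test of treatment, and the cell line was not checked by its markers here.

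In the absence of a Wnt ligand, APC and AXIN1 hold beta-catenin in a destruction complex, where it is marked for degradation. Wnt binding to a Frizzled receptor and to LRP5 or LRP6 draws AXIN1 away, and beta-catenin then enters the nucleus and acts with factors such as TCF7L2. RNF43 and ZNRF3 remove Frizzled receptors from the cell surface and so damp the signal. In the gut lining the pathway maintains stem cells, and its parts are often mutated in tumours of the stomach and colon.

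Strong m6A peaks stood at the same places in CDCA-treated and untreated cells in FZD7, ZNRF3, APC and AXIN1. These were the 4 genes whose strongest peak reached a −log10 q of 100 in both lists. Among all peaks that strong, 91.2% in the CDCA list and 87.6% in the control list overlapped a peak of the other list. FZD7 and APC also had a strong control peak without a CDCA partner. LRP6 had weaker peaks, 5 of which had a counterpart in the other list. TCF7L2 had many weak peaks and none in common, CTNNB1 had peaks in the control list alone, FZD6 and LRP5 had 1 peak each in the CDCA list alone, and RNF43 had no listed peak in either. Thus 8 genes had a listed peak in the CDCA list and 7 in the control list. All peaks of TCF7L2, CTNNB1 and LRP5 had a −log10 q below 50. At that strength 13.1% of all CDCA peaks and 9.66% of all control peaks overlapped a peak of the other list.

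**Figure D1:**
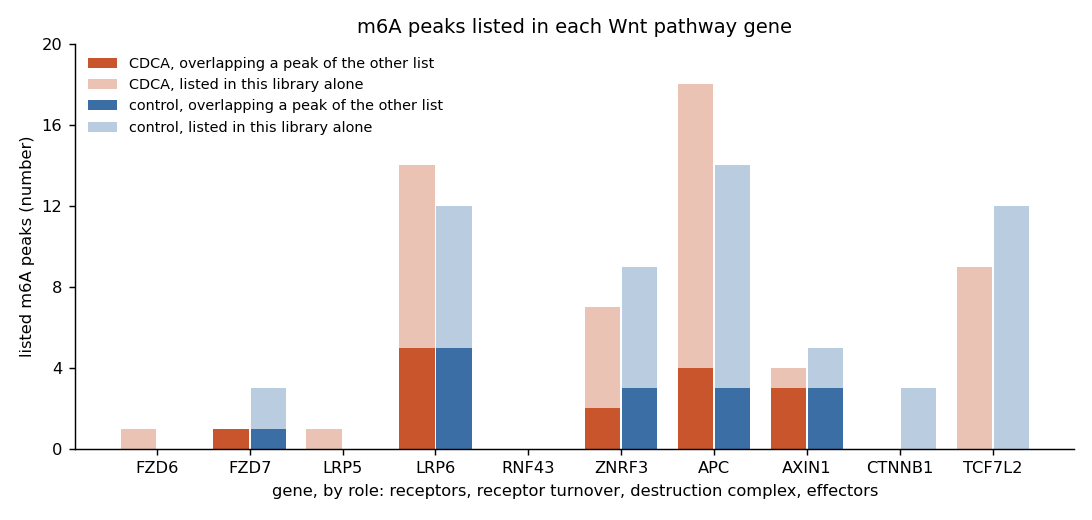
Number of listed m6A peaks (vertical axis) in each of the 10 genes (horizontal axis), with CDCA bars left of control bars; the dark part of a bar counts peaks that overlap a peak of the other list and the pale part those listed in 1 library alone. APC, LRP6 and TCF7L2 hold 41 of the 55 CDCA peaks and 38 of the 58 control peaks, and RNF43 has none.

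The CDCA list held 18 peaks in APC, 14 in LRP6, 9 in TCF7L2, 7 in ZNRF3 and 4 in AXIN1. The control list held 14 in APC, 12 in LRP6, 12 in TCF7L2, 9 in ZNRF3 and 5 in AXIN1. FZD7 had 1 peak in the CDCA list and 3 in the control list, CTNNB1 had 0 in the CDCA list and 3 in the control list, and FZD6 and LRP5 each had 1 in the CDCA list and 0 in the control list. Over the 10 genes the CDCA number was 94.8% of the control number (64.4 to 140, exact Clopper-Pearson 95% interval), an interval that includes the 82.7% found over all peaks. Among peaks with −log10 q of 20 or more the 10 genes had 16 in the CDCA list and 29 in the control list, or 55.2%, against 56.2% over all such peaks. Intervals cover counting error only, and they treat peaks of 1 gene as separate although these share a transcript.

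Peaks were called shared when they overlapped by 1 bp or more. Among the 55 CDCA peaks 15 were shared (27.3%, 16.1 to 41.0), against 22.2% in the CDCA list as a whole. Among the 58 control peaks 15 were shared (25.9%, 15.3 to 39.0), against 18.2% in the control list as a whole. These shares are near those of the whole lists. Sharing followed the strength of the peaks. Where −log10 q was 50 or more, 8 of 9 CDCA peaks and 8 of 13 control peaks were shared, against 80.9% of all CDCA peaks and 65.1% of all control peaks at that level. Below 50, 7 of 46 CDCA peaks and 7 of 45 control peaks were shared, against 13.1% and 9.66% over the whole CDCA and control lists.

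**Figure D2:**
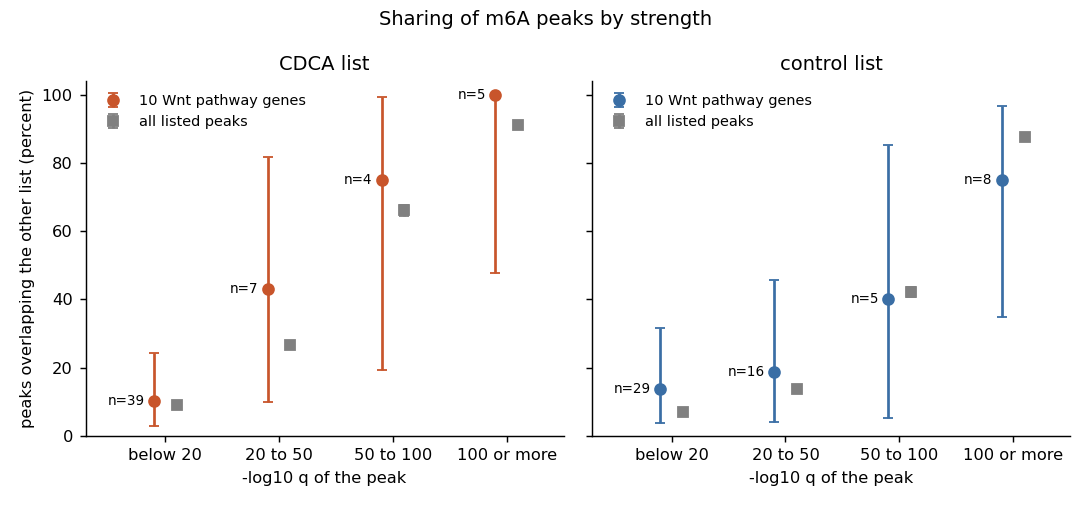
Share of peaks that overlap a peak of the other list (vertical axis, percent) by the peak's own −log10 q (horizontal axis), for the CDCA list on the left and the control list on the right. Coloured circles are the peaks of the 10 genes with their number, grey squares all listed peaks, and bars exact 95% intervals; in every band the interval of the 10 genes includes the share of all peaks.

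The peak values that follow are the authors' own. Height is the number of stacked fragments at the summit after scaling, fold enrichment compares height with the background expected at that place, and q is the caller's p-value after adjustment. Each list was made against its own background, so the values are set side by side and no change is read from them. A taller peak can come from more methylation per transcript, from more of the transcript per cell or from more cells carrying it. It can also come from the depth or scaling of the library. These cannot be told apart here. The local background was recovered from height and fold enrichment, in the same scaled fragments as the height. A fragment number is the height divided by the step between possible heights in that list.

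Among the receptors, FZD7, which binds Wnt and has a single exon, carried the most prominent site. Its CDCA peak on chromosome 2 at 202901058 to 202901630 had a height of 513.6, which corresponds to 803 fragments, a fold enrichment of 22.4 and a −log10 q of 487. The control peak at 202901046 to 202901668 had a height of 351.03 (407 fragments), a fold of 16.8 and a −log10 q of 292. The summits lay 22 bp apart, and both peaks were near the middle of the gene's span. The local background was 22 in the CDCA list and 20 in the control list.

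Untreated cells had further listed peaks upstream of that site in FZD7. The peak at 202900342 to 202900874 had a height of 189.7, a fold of 8.67 and a −log10 q of 106 in the control list, and lay 184 bp from the CDCA peak. The peak at 202899278 to 202899951, which lies near the 5′ end of the span, had a fold of 12.30 and a −log10 q of 38.7 in the control list. Neither had a CDCA peak over it. The lists skip peak numbers, and no listed peak in either has a fold below 6, so an unlisted site may have been called and left out. Upstream of the CDCA peak, between it and its listed neighbour to the left, the CDCA numbering skipped 2.

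FZD6, a Frizzled receptor best known for planar cell polarity, had a peak in the CDCA list alone. It lay on chromosome 8 at 104336582 to 104337025, with a height of 165.7 (259 fragments), a fold of 8.77 and a −log10 q of 93.9. Its local background was 18, one of the higher values among the CDCA peaks of the 10 genes. The nearest control peak was 35662 bp away, and the control numbering skipped 5 between its listed neighbours there. Of the CDCA peaks of the 10 genes whose −log10 q was 50 or more, this was the 1 without a control partner. A skipped number beside such a peak was found for 87.5% of them over the whole CDCA list.

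The co-receptors LRP5 and LRP6, which are close relatives, differed in how many peaks they had. LRP5 had a single weak peak of 200 bp in the CDCA list, on chromosome 11 at 68153778 to 68153977, with 21 fragments at its summit, a fold of 7.22 and a −log10 q of 8.92. The control list had none within 80765 bp of it. LRP6 had 14 CDCA peaks and 12 control peaks, spread over its span, and its −log10 q reached 85.0 in the CDCA list and 116 in the control list.

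The strongest LRP6 site that both lists held lay in the 5′ part of the gene. The CDCA peak on chromosome 12 at 12397085 to 12397592 had a height of 152.9, a fold of 8.55 and a −log10 q of 85.0, and the control peak at 12397072 to 12397583 had 180.3, 7.55 and 91.7. The summits were 10 bp apart, over local backgrounds of 17 in the CDCA list and 23 in the control list. Another site near the 3′ end, at 12273948 to 12274325 in the CDCA list and 12273877 to 12274299 in the control list, had a fold of 10.6 in the CDCA list and 9.45 in the control list. Its heights also lay close together, at 64.6 in the CDCA list and 59.5 in the control list. At 12318002 to 12318283 the CDCA peak had a fold of 6.08 with a background of 10, and the control peak at 12317960 to 12318275 had 9.72 with a background of 7. The remaining shared LRP6 sites were weak. At 12315241 to 12315508 the −log10 q was 22.9 in the CDCA list, and 12.7 for its control counterpart. At 12356320 to 12356762 it was 9.49 in the CDCA list, and 20.9 for its control counterpart.

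LRP6 also had the highest count of strong peaks listed in untreated cells alone. The control peak at 12334017 to 12334535 had a height of 166.5 (193 fragments), a fold of 11.96 and a −log10 q of 116, and a CDCA peak of −log10 q 23.9 ended 950 bp away. The control peaks at 12353510 to 12353736 and 12403930 to 12404133 had 59 and 54 fragments and folds of 23.6 and 26.4. Their local backgrounds were low, 1.2 and 0.799. At these low backgrounds a modest number of fragments gives a high fold. For these low-background sites the CDCA numbering skipped none between its listed neighbours, and for the site at 12334017 it skipped 2.

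The ubiquitin ligases RNF43 and ZNRF3 act on the same receptors, and their listed peaks differed. RNF43 had none in either list. As the input libraries were not analysed here, the amount of RNF43 transcript in the cells is unknown. Between the listed peaks that flank its span, the CDCA numbering skipped 0 and the control numbering skipped 3. ZNRF3 carried a strong site close to its 3′ end in both lists. The CDCA peak on chromosome 22 at 29445782 to 29446959 was 1178 bp long, with a height of 319.2 (499 fragments), the highest fold of all peaks of the 10 genes in either list, 100.1, and a −log10 q of 551. The control peak at 29446176 to 29447006 was 831 bp long, with a height of 272.5 (316 fragments), a fold of 30.4 and a −log10 q of 301. Their summits lay 18 bp apart and 7302 and 7320 bp from the 3′ end of the span.

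At this ZNRF3 site the heights were closer than the folds. The local background was 2.2 in the CDCA list and 8 in the control list. The CDCA peak also overlapped part of a smaller control peak at 29445707 to 29445951, with a fold of 8.01 and a −log10 q of 18.8. The summits of that pair lay 861 bp apart, so 1 CDCA peak met more than 1 control peak here. A weak peak beside it was shared too, with 26 fragments in the CDCA list and 24 in the control list. The other 5 CDCA peaks of ZNRF3 had no partner and a −log10 q of at most 16.8. The other 6 control peaks had none either, and the strongest of them, at 29389800 to 29390073, had a fold of 22.6 and a −log10 q of 49.1.

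**Figure D3:**
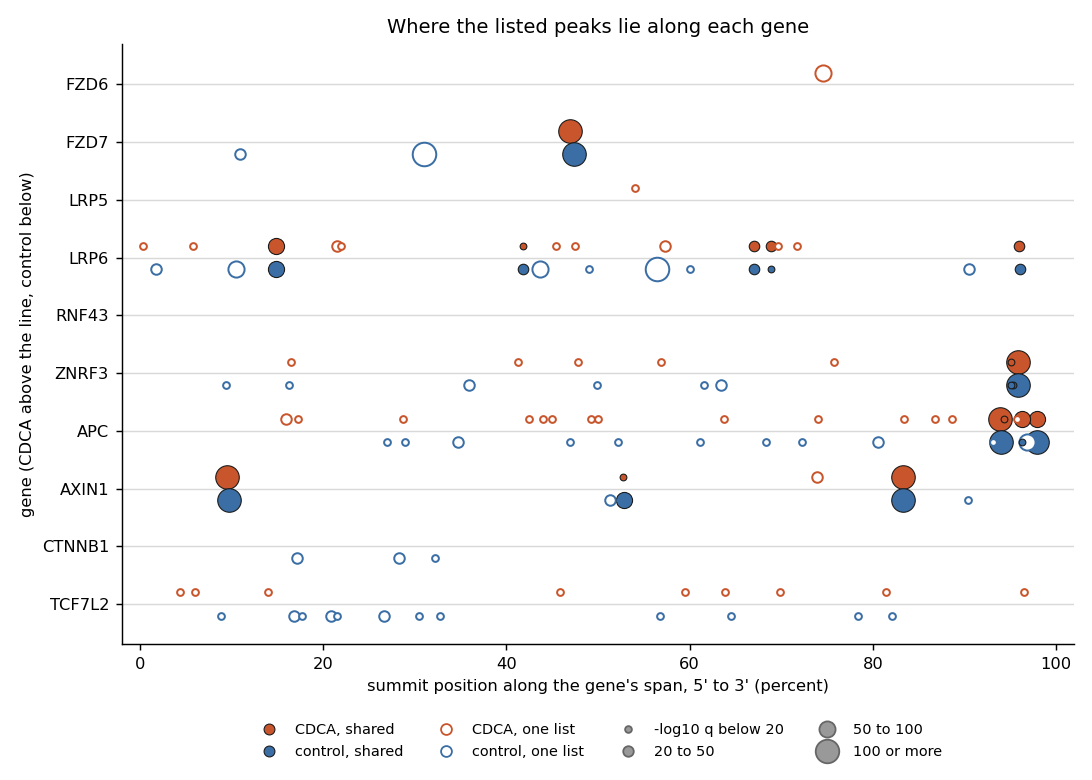
Position of each listed summit along its gene, as percent of the span in the direction of transcription (horizontal axis), with CDCA above and control below each gene's line (vertical axis). Filled circles overlap a peak of the other list, open circles do not, and circle area steps up with −log10 q; the large filled circles of ZNRF3 and APC lie in the last 10% of the span and the large filled circles of AXIN1 toward its ends.

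APC, the scaffold most often lost in colon tumours, had its strong peaks near the 3′ end in both lists, with summits at most 8441 bp from it. APC ends in a very long exon that holds most of its coding sequence. On chromosome 5, the CDCA peak at 112173188 to 112173834 had a height of 269.3 (421 fragments), a fold of 24.6 and a −log10 q of 271. The control peak at 112173094 to 112174262 had a height of 316.5 (367 fragments), a fold of 52.9 and a −log10 q of 433. Their summits were 10 bp apart. The control peak was 1169 bp long and covered a second, weak CDCA peak at 112174039 to 112174241 with a fold of 7.496.

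Nearer the 3′ end of APC, the CDCA peak at 112178605 to 112179653 had a height of 117.05 (183 fragments), a fold of 15.95 and a −log10 q of 98.8. The control peak at 112178906 to 112179752 had a height of 302.7 (351 fragments), a fold of 66.0, the highest of the control peaks of the 10 genes, and a −log10 q of 451. The summits were 20 bp apart, with local backgrounds of 6.4 in the CDCA list and 3.6 in the control list. Within the CDCA list the more 3′ site was the weaker one by height and by q. Within the control list their heights were close, and the more 3′ site had the higher fold and q.

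Between these APC sites the order of the folds was the other way round. The CDCA peak at 112176590 to 112176863 had a fold of 16.6 and a −log10 q of 56.1, and the control peak at 112176670 to 112176883 had 6.06 and 18.4. A control peak at 112177504 to 112177755, with a fold of 14.9 and a −log10 q of 61.5, had no CDCA partner. It lay 641 bp from a CDCA peak, and the CDCA numbering skipped none there. The rest of the gene held weak peaks: the 14 CDCA peaks without a partner had −log10 q values of 5.84 to 24.3 and 15 to 42 fragments.

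AXIN1, the scaffold that brings beta-catenin together with the kinases that mark it, had strong shared sites toward both ends. The first lay near the 5′ end on chromosome 16. There the CDCA peak at 396269 to 397068 had a height of 322.4 (504 fragments), a fold of 20.2 and a −log10 q of 295, and the control peak at 396153 to 397045 had 274.3 (318 fragments), 34.4 and 320. The other lay toward the 3′ end. There the CDCA peak at 347828 to 348304 had a height of 250.1 (391 fragments), a fold of 8.97 and a −log10 q of 144, and the control peak at 347813 to 348256 had 329.5 (382 fragments), 30.0 and 360.

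In both AXIN1 sites the fold was lower in the CDCA list and the background higher. The background at the 5′ site was 15 in the CDCA list and 7 in the control list. At the 3′ site it was 27 in the CDCA list and 10 in the control list. A weaker site in mid-gene, at 368040 to 368514 in the CDCA list and 367984 to 368250 in the control list, had a fold of 9.76 in the CDCA list and 28.4 in the control list. It rested on 32 fragments in the CDCA list and 58 in the control list. One CDCA peak of AXIN1, at 354110 to 354341 with a fold of 12.9 and a −log10 q of 40.0, had no control partner, and the control numbering skipped none beside it.

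**Figure D4:**
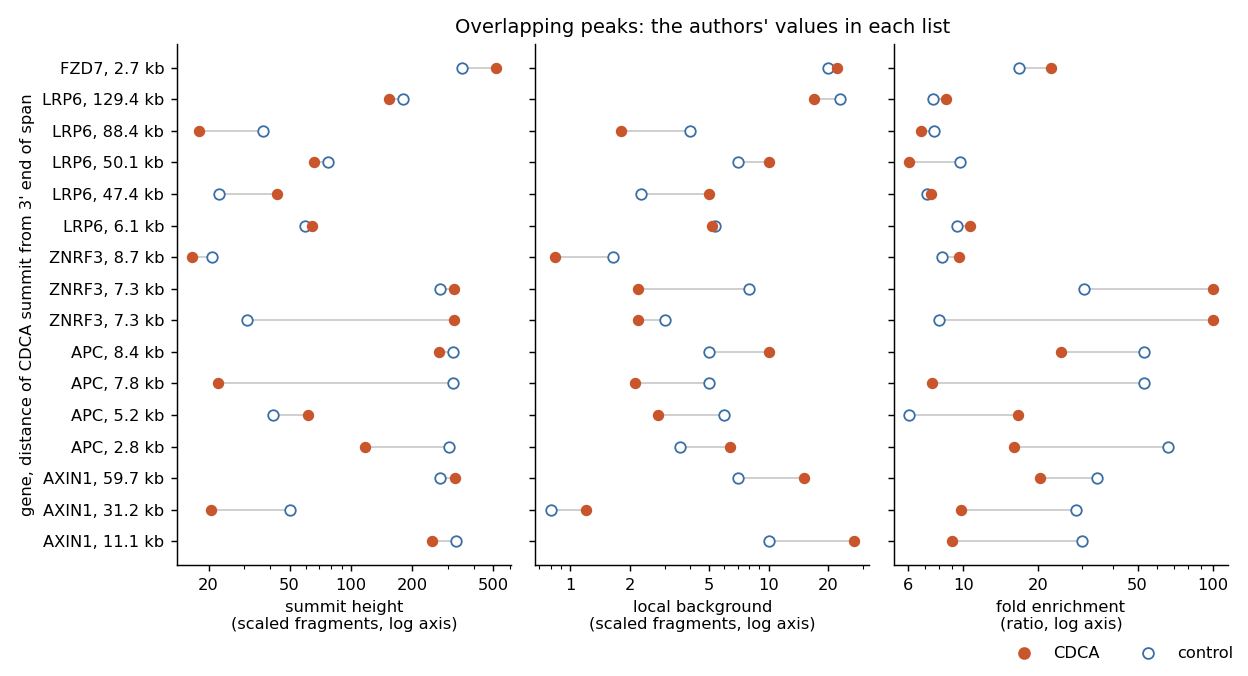
Height (left), local background (middle) and fold enrichment (right), each on a log axis, of the 16 pairs of overlapping peaks, with CDCA as filled and control as open circles and 1 row per pair named by gene and by the distance of the CDCA summit from the 3′ end of the span. A peak that meets more than 1 peak of the other list appears in each pair; the fold is higher in the CDCA list in 8 pairs and in the control list in 8.

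CTNNB1, the effector that the pathway controls, had 3 listed peaks in the control list and none in the CDCA list. On chromosome 3 they lay at 41246984 to 41247438, 41251839 to 41252048 and 41253430 to 41253629, in the 5′ part of the span. Their heights were 37.95, 37.95 and 32.8, their folds 7.79, 8.85 and 7.34, and their −log10 q values 20.9, 23.3 and 17.6. All were thus near the middle of the control list in strength and not far above the lowest listed fold. Between its listed neighbours on either side the CDCA numbering skipped 4, and the nearest listed CDCA peak was 40867 bp away from the closest of them. Over the whole control list, 13.6% of peaks with a −log10 q of 20 to 50 and 6.97% of those below 20 were shared. Most control peaks of this strength thus had no CDCA partner.

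TCF7L2, the factor through which beta-catenin acts on DNA, had 9 CDCA peaks and 12 control peaks, and none overlapped. The CDCA peaks had folds of 6.30 to 8.28 and −log10 q values of 6.95 to 16.5. The control peaks had folds of 6.05 to 11.5 and −log10 q values of 7.20 to 26.2. The TCF7L2 peaks were scattered over the span. Of them, 7 of the 9 CDCA peaks and 7 of the 12 control peaks had the minimum length of 200 bp. Over the whole lists 33.2% of CDCA peaks and 33.3% of control peaks had that length. All 9 CDCA peaks and 9 of the 12 control peaks of TCF7L2 had a −log10 q below 20. Below 20, 8.93% of all CDCA peaks and 6.97% of all control peaks were shared, so most peaks this weak had no partner. A skipped number in the other list stood beside 7 of the CDCA peaks and 9 of the control peaks of TCF7L2. Several of these peaks lay in the same gap of the other list, so the same skipped numbers were counted more than once. The control peaks from 114745680 to 114780711 all lay in a single gap, where the CDCA numbering skipped 5. The share for peaks this weak over the whole lists is not given here.

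Pairs were chosen by overlap, which by itself keeps summits close, so whole-list values are set beside those of the 10 genes. The median distance between the summits of the 16 overlapping pairs was 34 bp, and 9 pairs lay within 50 bp. Over all 11870 pairs of the lists the median was 51 bp, and 49.9% lay within 50 bp. The heights were larger in the CDCA list in 7 pairs and in the control list in 9, and the local backgrounds were larger in the CDCA list in 8 and in the control list in 8. Fold enrichment was larger in the CDCA list in 8 pairs and in the control list in 8. Over all pairs, height was larger in the CDCA list in 4294 and in the control list in 7576. Background was larger in the CDCA list in 4538 and in the control list in 7332, and fold in the CDCA list in 5246 and in the control list in 6624. These 16 pairs are few, and the difference from the whole lists was not tested.

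Within the 10 genes, shared peaks lay further toward the 3′ end than peaks listed once. Of the 15 shared CDCA peaks, 7 were in the last 10% of the span, against 2 of the 40 CDCA peaks without a partner. In the control list 7 of 15 shared peaks and 4 of 43 peaks without a partner lay there. The 7 came from APC, LRP6 and ZNRF3 in each list, so they are few transcripts and were not tested. Shared peaks were also stronger, with a median −log10 q of 56.1 against 11.5 in the CDCA list. In the control list the medians were 68.3 and 17.6. Position was not separated from gene or strength, and positions over the whole lists are not given here. Peaks without a partner were mostly weak, and 35 of the 40 in the CDCA list and 25 of the 43 in the control list had a −log10 q below 20. Over the whole lists this held for 77.5% of CDCA peaks and 57.1% of control peaks without a partner, and in the 10 genes for 87.5% of CDCA and 58.1% of control ones.

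Untreated cells had 5 strong peaks without a CDCA partner, 3 in LRP6 and 1 each in APC and FZD7. A skipped CDCA number stood beside 2 of the 5, against 81.5% of such peaks over the whole control list. These 5 peaks are few and mostly from LRP6, and the difference was not tested. Whether a number is skipped also depends on how far apart the listed CDCA neighbours lie. Where no number was skipped, the CDCA list had no further numbered peak between its listed neighbours. With 1 library per condition, a part played by CDCA and library-to-library variation cannot be told apart.

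The lists give no strand and no gene names, and exons and introns were not told apart here. In RefSeq's gene table for another build, GRCh38.p14, other genes lie across some spans. They include ZNRF3-AS1 in ZNRF3, TSPOAP1-AS1 at RNF43, LOC105369147 and SNORD173 in FZD6, and LOC124900302 and LOC124902698 in LRP5. TCF7L2 holds LOC124902502, RPS15AP30 and SNORA87. APC holds the pseudogenes CBX3P3 and RNU6-482P, and LRP6 the pseudogenes RPL21P100, MORF4L1P2, RNU6-545P and LOC101929053. No gene crosses CTNNB1, AXIN1 or FZD7 in that table. A peak inside a span with such a gene could belong to either.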

How the data were processed

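m6A immunoprecipitation libraries of GES-1 cells were analysed from 1 peak list for CDCA-treated cells and 1 for untreated cells; the input libraries were not analysed here. Per the submitters' processing notes, TopHat2 2.0.13, MACS2 2.1.0 and hg19 were used, with no roles stated; their filters and thresholds were not given in the sources used here. Per the file headers, pileup is a signal (summit height), significance is −log10 of a p-value and of a q-value, and fold enrichment is a ratio. The authors deposited separate lists, not pooled ones, and peak length in bp as another column.

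Local background was computed as (height + 1) / fold − 1, taking fold as height over background after adding 1 to each. Heights were whole multiples of 0.640 (CDCA) and 0.862 (control) for 100% of peaks, within 0.02 steps; 1 step was read as 1 fragment. The weakest listed summits rested on 15 and 12 fragments. Total depth is unknown. Sharing meant an overlap of at least 1 bp. A skipped number is a peak number missing between the listed neighbours of an interval in the other list. No test was made.

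The named items were all 10 genes, each gene's strongest peak, shared peaks and one-list peaks whose −log10 q was 50 or more; weak ones are given by range, and a few were named after their values were seen. Members and gene spans were chosen with earlier results of these data known. Other pathway genes were not analysed here, for want of an hg19 annotation, nor were sequences. The overlap step, tested on simulated lists of 20000 peaks, was right for 100%. Python 3.11.15, matplotlib 3.10.9, scipy 1.17.1, pandas 2.3.3 and numpy 2.4.6 were used.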

Additional observations from a re-analysis of the deposited data

How the results depend on the processing

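Counts and shares depended mainly on the strength required of a peak. With −log10 q of 20 or more in both lists, the 10 genes had 16 CDCA and 29 control peaks, against 17653 and 31399 over the whole lists. Of these peaks of the 10 genes, 56.2% of the CDCA and 31% of the control peaks were shared. With a fold of at least 10 in both lists the 10 genes had 13 CDCA and 22 control peaks. A fold below 10 was found for 42 of their 55 CDCA peaks and 36 of their 58 control peaks. Over the whole lists it was found for 33773 of 52188 CDCA peaks and 33442 of 63093 control peaks. Whole-list shares at these settings are not given here. Where −log10 q was 50 or more, a setting added after seeing the data, 88.9% of CDCA and 61.5% of control peaks had a partner. Over the whole lists 80.9% of CDCA and 65.1% of control peaks at that level had one. Equal list lengths and membership by any overlap left the counts within 1.5 times and the shares within their 95% intervals. Spans widened by 1 kb (added later, run on the counts alone) gave 57 CDCA and 59 control peaks. Overlap of at least 50% of the shorter peak and summits within 100 bp, run on the shares alone, left them within those intervals. Of the peak numbers per gene and list, 8 moved by over 1.5 times at a −log10 q of at least 20 and 13 at a fold of at least 10, all to fewer peaks. Listed summits began at 15 fragments in the CDCA list and 12 in the control list; total depth is unknown, and its part in the listing was not tested. No paired analysis was possible because each condition had 1 library.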
